A study of Sus scrofa with 2 samples.

Results

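The miRNAs of the miR-532 cluster, a group of miRNA genes on chromosome X beside *CLCN5*, were examined in an oxidative muscle, the *psoas major* of the loin (PMM), and in a glycolytic one, the *longissimus dorsi* of the back (LDM). Members were every pig (ssc) entry of the deposited table numbered miR-532, miR-500, miR-362, miR-502 or miR-660, with any letter and either arm. The rule found 7 of the 668 entries. There were 2 entries of miR-532 (ssc-miR-532-5p and ssc-miR-532-3p), 3 of miR-500 and 2 of miR-362, whereas no entry was numbered miR-502 or miR-660. Both muscles came from female Landrace pigs of 210 days, and the RNA of 3 pigs was pooled per muscle before 1 small RNA library was made of each pool. Feed was withdrawn from the pigs about 24 h before slaughter, so both muscles came from fasted animals. No other treatment was labelled, and the muscles share all their labelled features but the tissue. With 1 pooled library per muscle the spread between pigs was not measured, so no difference between the muscles could be tested. Each interval given below is a 95% interval that covers counting error only.

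A miRNA hairpin is cut into a duplex of a 5p and a 3p strand, one or both of which are loaded into an Argonaute protein and guide it to messenger RNAs. Bases 2 to 8 of the loaded strand, the seed, do most of the pairing. Hairpins that lie close together are often cut from a single transcript, so that their levels can move together, whereas both arms of a hairpin are made in equal numbers when it is cut. In human and mouse the hairpins of this cluster, with miR-188 and miR-501, lie within introns of *CLCN5*, the gene of an endosomal chloride-proton exchanger whose loss causes Dent disease of the kidney. In the RefSeq gene table of assembly Sscrofa11.1 the order on chromosome X was USP27X, MIR532, MIR500, MIR362 and CLCN5, and the 3 miRNA genes lay outside the annotated span of CLCN5. Their place inside that gene is therefore known here from other mammals and not from the pig annotation used. No entry was numbered miR-188 or miR-501.

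The consensus sequences that the deposited table gave for the members are shown because the split between arms and the likeness of the miR-500 and miR-362 strands both rest on them. Capitals mark the seed, bases 2 to 8 from the 5′ end, and T stands for U.
miR-532-5p: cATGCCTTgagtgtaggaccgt
miR-532-3p: cCTCCCACacccaaggcttgca
miR-500a-5p and miR-500b-5p (1 entry): tAATCCTTgctacctgggtgaga
miR-500b-3p: aTGCACCTgggcaaggattctga
miR-500a-3p: gTGCACCTgggcaaggattctga
miR-362-5p: aATCCTTGgaacctaggtgtga
miR-362-3p: aACACACCtattcaaggattca

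The sequences were 22 or 23 nt long. The miR-532 strands had seeds of their own, shared with no other entry of the table. The 5p strands of miR-500 and miR-362 held the same run of 8 bases, AATCCTTG, which began at base 2 in miR-500 and at base 1 in miR-362, so that their seeds were offset by 1 base. That run was found in 2 of the 668 entries, which were these. Their 3p strands shared the 9 bases CAAGGATTC, whose first 8 are the reverse complement of the 5p run, and this was found in 4 of the 668 entries. The strands miR-500b-3p and miR-500a-3p differed at the first base only (A1G, counted from the 5′ end of miR-500b-3p) and shared their seed. The fourth entry with the 9 bases was PN-71-3p, an entry with a name of the authors' own, which was 21 nt long and differed from miR-500b-3p over that length by T21A.
PN-71-3p: aTGCACCTgggcaaggattca
It had 5 reads in PMM and was listed at 0 in LDM, near the smallest value listed in either library (3 reads). The reads of miR-500a-5p and miR-500b-5p cannot be told apart, since both names stand for 1 entry, and the division of reads between miR-500a-3p and miR-500b-3p rests on 1 base.

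All values are the normalised reads of the deposited table. PMM held 8556672 normalised reads. LDM held 8750049, in which 1 read is worth 1.15 units, which gives 7603850 reads. As a check of the tissue, the striated muscle miRNA miR-1-3p was the highest entry in either library, with 2454768 normalised reads in PMM and 3817996 in LDM. Of the other skeletal muscle markers, miR-133a-3p had 1709700 in PMM and 2024439 in LDM, and miR-133b-3p 37166 in PMM and 46097 in LDM. miR-206-3p went the other way, with 153215 in PMM and 110504 in LDM. Of slow muscle, miR-499-5p had 20415 in PMM and 1673 in LDM, and miR-208b-3p 5344 in PMM and 3167 in LDM. Of 14 markers of other tissues 12 were listed, and they summed to 25282 normalised reads in PMM and 18286 in LDM. Those of blood, vessels and leukocytes were well present and, as deposited, higher in PMM. miR-451-5p of erythrocytes had 8781 in PMM and 7461 in LDM, a log2 ratio of 0.23. This is below the median of 0.35 given in the next paragraph. miR-126-3p of endothelium had 14898 in PMM and 9123 in LDM, and miR-142-3p of leukocytes 623 in PMM and 436 in LDM. miR-9-5p of nerve had 182 in PMM and 32.2 in LDM. The miRNAs used as kidney markers went both ways. miR-204-5p had 352 in PMM and 959 in LDM. By contrast, miR-192-5p had 49 in PMM and 34.5 in LDM, and miR-194-5p 28 in PMM and 6.90 in LDM. The liver miRNA miR-122-5p had 10 in PMM and 8.06 in LDM. Of epithelium, miR-205-5p had 11 in PMM and 32.2 in LDM, and miR-429-3p 3 in PMM and 0 in LDM. No entry was found for miR-150-5p of lymphocytes or miR-200b-3p of epithelium. The part of such cells in the ratios below was not tested. Levels below are also given in RPM, reads per library total of 1000000.

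The cluster as a whole was higher in PMM, and most of that came from a single strand. Summed over the 7 entries, the cluster held 3878 normalised reads in PMM and 1777 in LDM, a ratio of 2.18 (2.06 to 2.32). Without miR-532-5p the sums were 1237 in PMM and 1017 in LDM, a ratio of 1.22 (1.11 to 1.33). The middle of these libraries lay close to the second value: the median log2 ratio, with a pseudocount of 1 RPM on both values, was 0.35 over the 185 entries that averaged 10 RPM or more, or 1.28-fold in favour of PMM. miR-532-5p held 68.1% of the cluster's reads in PMM (66.6 to 69.6) and 42.7% in LDM (40.3 to 45.3).

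**Figure D1:**
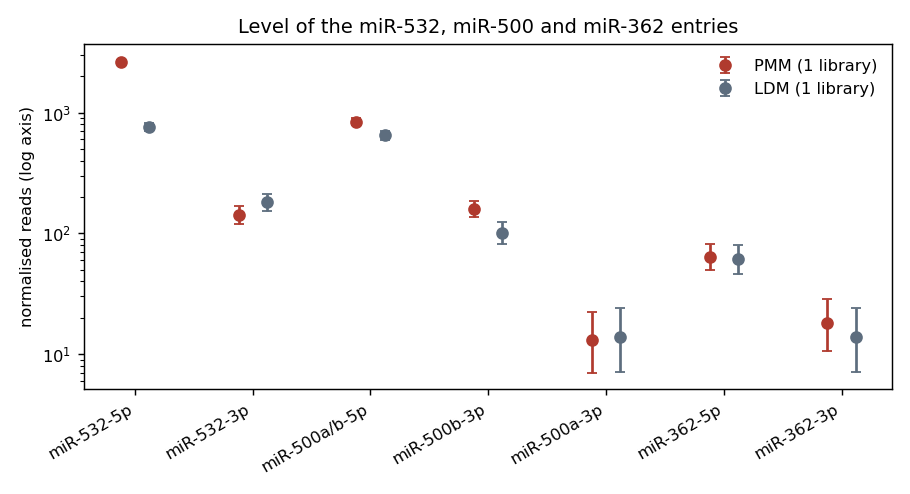
Normalised reads of the 7 entries (log axis) in the PMM library (red) and the LDM library (grey), with bars for the 95% Poisson counting interval. miR-532-5p had 2641 normalised reads in PMM and 759 in LDM, the widest gap of the 7, and the intervals of the 2 libraries overlap for miR-532-3p, miR-500a-3p, miR-362-5p and miR-362-3p.

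miR-532-5p, a strand that was reported to repress the transcription factor RUNX3 in human gastric cancer cells, had 2641 normalised reads in PMM (309 RPM) and 759 in LDM (86.8 RPM). It ranked 67 by level in PMM and 91 in LDM. The ratio was 3.48 (3.19 to 3.79). Among these 185 entries the log2 ratio of 1.79 was the 13th from the top, with 172 entries below it.

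miR-532-3p, the other strand of the same hairpin, did not follow. It had 143 normalised reads in PMM (16.7 RPM) and 181 in LDM (20.6 RPM), and ranked 167 in PMM and 141 in LDM. The ratio as deposited was 0.792 (0.627 to 0.999), or 1.26-fold higher in LDM. With the libraries scaled to equal totals it was 0.809 (0.641 to 1.02), so that the difference in level was not beyond counting error on that scale. Its log2 ratio of −0.32 had 152 as its place from the top of the 185 entries. Under each of the scalings run, miR-532-5p had a log2 ratio above 0 and miR-532-3p one below 0.

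The miR-500 entries lay near the middle of the libraries. The joined entry of miR-500a-5p and miR-500b-5p had 840 normalised reads in PMM (98.2 RPM) and 647 in LDM (73.9 RPM), a ratio of 1.30 (1.17 to 1.45). This is close to the median of 1.28, and its log2 ratio of 0.37 placed it 91 among the 185 entries. miR-500b-3p had 159 normalised reads in PMM (18.6 RPM) and 101 in LDM (11.6 RPM), a ratio of 1.57 (1.20 to 2.06). miR-500a-3p had 13 in PMM and 13.8 in LDM (12 reads), a ratio of 0.941 (0.396 to 2.26), which is within counting error. Of the miR-500 reads on the 3p arm, miR-500b-3p held 92.4% in PMM (87.4 to 95.9) and 88.0% in LDM (80.0 to 93.6), and these intervals overlap.

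Summed by number, miR-362 had the fewest reads, and its entries did not differ between the muscles beyond counting error. Among single entries miR-500a-3p was the lowest in PMM and level with miR-362-3p in LDM. miR-362-5p, which was reported to repress the deubiquitinase CYLD in human liver cancer cells, had 64 normalised reads in PMM (7.48 RPM) and 61.0 in LDM (6.97 RPM), a ratio of 1.05 (0.718 to 1.54). miR-362-3p had 18 in PMM and 13.8 in LDM (12 reads), a ratio of 1.30 (0.594 to 2.97). At this depth neither a rise nor a fall of these strands was detectable.

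**Figure D2:**
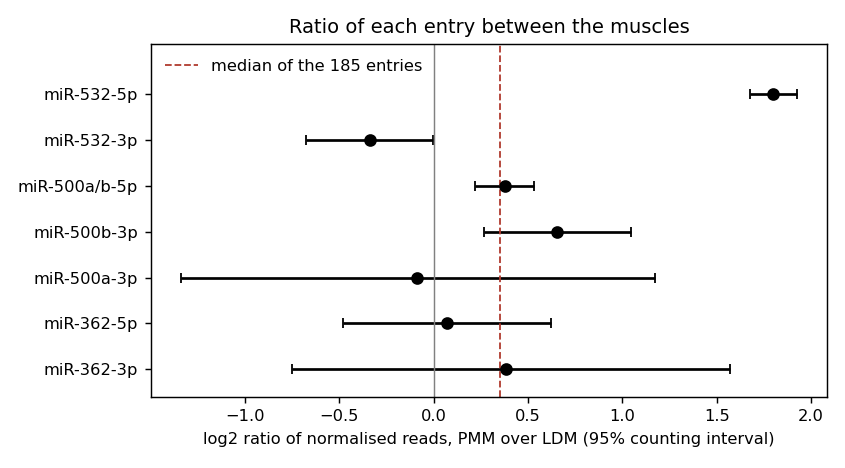
Log2 ratio of normalised reads, PMM over LDM, of the 7 entries without a pseudocount (points) with the 95% counting interval (bars). The grey line is equality and the dashed line the median of the 185 entries that averaged 10 RPM or more (0.35). miR-532-5p at 1.80 lies to the right of the other 6 entries, and the interval of miR-532-3p lies to the left of the dashed line.

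Of the 7 members, 4 averaged 10 RPM or more and 3 were lower. Of the 4, only miR-532-5p was at least 2-fold higher in PMM and none was at least 2-fold lower, beside 21.6% (40 of 185) and 6.49% (12 of 185) of all entries at that level. After centring on the median log2 ratio these counts over all entries were 24 higher and 21 lower. The median log2 ratio was 0.49 over the 4 members and 0.25 over the 7, against 0.35 over the 185 entries and 0.43 over all 668. One member past the limit among 4 is close to the share of all entries, so that the cluster as a list did not stand apart.

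**Figure D3:**
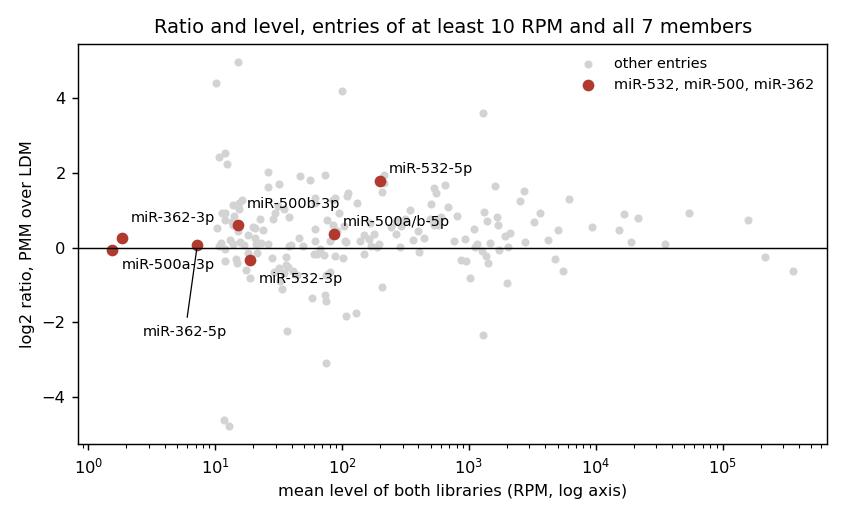
Mean level of both libraries (RPM, log axis) against the log2 ratio PMM over LDM with a pseudocount of 1 RPM. Grey points are the other entries that averaged 10 RPM or more, and red points the 7 members, of which 3 are under that level. miR-532-5p lies at 1.79 and the other 6 members between −0.32 and 0.61.

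Whether the members moved together was examined by the ratio of their ratios, in which the scaling between libraries cancels. All 21 pairs of members were compared, without adjustment over the pairs. The interval did not hold the value 1 in 8 of the 21, and these were the 6 pairs with miR-532-5p and 2 with miR-532-3p. The ratio of miR-532-5p was 2.68 times that of the joined miR-500 5p entry (2.33 to 3.08), 2.21 times that of miR-500b-3p (1.66 to 2.93) and 3.31 times that of miR-362-5p (2.23 to 4.89). Against the sum of the other 6 members it was 2.86 times as large (2.53 to 3.23).

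Among the 10 pairs of miR-500 and miR-362 entries each interval held the value 1. Summed by number, the miR-500 ratio was 1.21 times the miR-362 ratio (0.848 to 1.73). These entries therefore did not differ from one another beyond counting error, although the interval of the sums also allows a difference of up to 1.73-fold. Single pairs allow more, as the interval of miR-362-3p over miR-500a-3p runs from 0.416 to 4.62. miR-532-3p had a lower ratio than the joined miR-500 5p entry, which was 1.64 times as large (1.27 to 2.13). Against miR-500b-3p the ratio of miR-532-3p was 0.504 times as large (0.351 to 0.722). Set against all miR-500 and miR-362 entries together it was 0.605 times as large (0.470 to 0.779). Singly, it was 0.754 times as large as that of miR-362-5p (0.480 to 1.18) and 0.607 times that of miR-362-3p (0.257 to 1.39). It was 0.841 times that of miR-500a-3p (0.339 to 2.07), and each of these intervals holds the value 1. The 2 miR-532 strands thus lay on opposite sides of the sum of the miR-500 and miR-362 entries. miR-532-3p was not below every one of those entries beyond counting error.

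The order of levels within a library differed between the muscles at 1 place. In PMM miR-532-5p was 3.14 times as high as the joined miR-500 5p entry (2.91 to 3.40), followed by miR-500b-3p, miR-532-3p, miR-362-5p, miR-362-3p and miR-500a-3p. In LDM miR-532-5p was 1.17 times as high as the joined miR-500 5p entry (1.05 to 1.32), and miR-532-3p stood above miR-500b-3p by 1.78 times (1.37 to 2.34). In PMM those strands did not differ beyond counting error, with miR-500b-3p 1.11 times as high as miR-532-3p (0.881 to 1.40). miR-362-3p and miR-500a-3p did not differ beyond counting error in either library. Reads of different strands can be captured with unequal efficiency, so the order within a library is that of reads and not of molecules.

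The 5p strand was the more abundant one for each number, and only for miR-532 did the split differ between the muscles beyond counting error. The 5p arm held 94.9% of miR-532 reads in PMM (94.0 to 95.7; 2641 of 2784 reads) and 80.8% in LDM (77.9 to 83.4; 660 of 817 reads). There were thus 18.5 reads of the 5p strand per read of the 3p strand in PMM and 4.20 in LDM, a ratio of 4.39 (3.42 to 5.64). For miR-500, with its entries summed, the 5p arm held 83.0% in PMM (80.5 to 85.3) and 84.9% in LDM (81.9 to 87.5), a ratio of 0.869 (0.657 to 1.15). For miR-362 the 5p arm held 78.0% in PMM (67.5 to 86.4; 82 reads in all) and 81.5% in LDM (70.0 to 90.1; 65 reads), a ratio of 0.805 (0.323 to 1.95). In LDM the 3 intervals of the 5p share overlap, whereas in PMM that of miR-532 lies above those of miR-500 and miR-362.

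**Figure D4:**
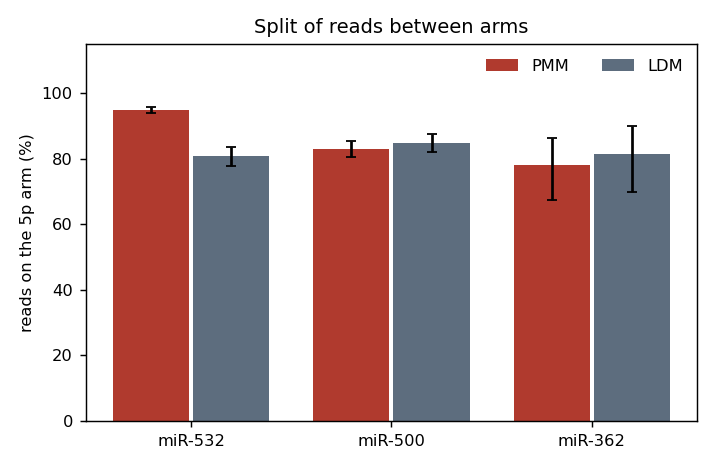
Share of reads on the 5p arm of miR-532, miR-500 (entries summed) and miR-362 in PMM (red) and LDM (grey), with bars for the 95% Clopper-Pearson interval. The miR-532 share was 94.9% in PMM and 80.8% in LDM, and the intervals of the other 2 numbers overlap between the muscles.

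The size of this difference was set beside all names with both arms listed, those of the authors' own included. In 46 pairs whose arms each averaged 10 RPM or more, the log2 ratios of the 5p and the 3p arm differed by a median of 0.55. The difference exceeded 1 in 21.7% of pairs (10 of 46) and 2 in 2.17% (1 of 46), which was miR-532. At 2.11 it had the largest difference of the 46, followed by miR-130b (−1.88), miR-181a-2 (−1.71), miR-136 (−1.55) and miR-491 (1.26), where a negative value means that the 3p arm had the higher ratio. A joined entry is part of 9 of the 46 pairs, so some pairs share an arm. The 5p entry of miR-181a-2 is joined with that of miR-181a-1 and stands in both of their pairs. As deposited, 3 of these 5 (miR-532, miR-181a-2 and miR-491) had arms of opposite sign, as did 28.3% of all pairs (13 of 46). After centring on the median log2 ratio all 5 had, as did 32.6% of all pairs (15 of 46), so that the signs of miR-130b and miR-136 rest on the scaling, whereas the differences do not. The miR-500b pair, with the joined entry as its 5p arm, had a difference of −0.24 and lay well within the rest. In percentage points of the 5p share the shift of miR-532 (14.1) had place 7, after miR-130b (−30.5), miR-136 (−25.4), miR-491 (22.2), miR-181a-2 (−20.5), miR-28 (−18.7) and miR-374a (−14.8). Without a limit on level miR-532 had place 7 of 187 pairs by the difference of log2 ratios, and 5 of the 6 pairs before it had an arm listed at 0 in a library.

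**Figure D5:**
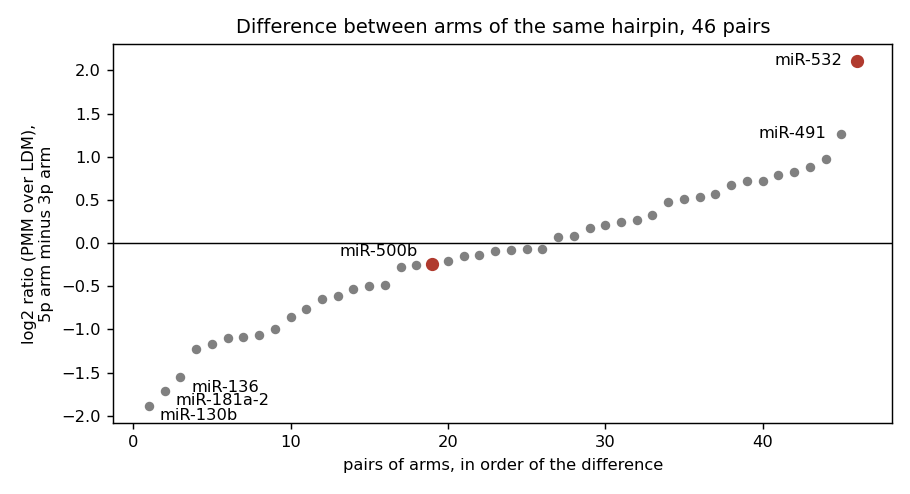
Log2 ratio (PMM over LDM) of the 5p arm minus that of the 3p arm in 46 pairs of arms, in order of the difference. Each arm averaged 10 RPM or more, and some pairs share a joined entry. Red points are miR-532 and miR-500b, and 4 other pairs are named. miR-532 at 2.11 is the highest point and miR-130b at −1.88 the lowest.

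Neighbouring miRNA genes were compared in the same way, a comparison chosen after the values were seen. In 29 pairs of miRNA genes with no other annotated gene between them, each represented by its highest entry of 10 RPM or more, joined entries included, the log2 ratios differed by a median of 0.50. A joined entry can stand for more than 1 gene, so the pairs are not all distinct. MIR92A-2 with MIR19B-2 and MIR19B-1 with MIR92A-1 rest on the same entries and gave the same difference (0.39). MIR532 and MIR500 differed by 1.41, with place 5 of the 29, and 20.7% of pairs (6 of 29) differed by over 1. The pairs with larger differences were MIR181D with MIR181C, MIR23A with MIR27A, MIR365-2 with MIR193A and MIR195 with MIR497. The row of miR-23a-3p broke the pattern of whole reads, since its PMM value was a whole multiple (5557) of the LDM step and its LDM value a whole number (11204). Without that entry, or with its values exchanged, MIR532 with MIR500 had place 4, and 5 of 27 or 5 of 29 pairs differed by over 1. MIR362 was under the level limit and gave no pair.

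Other miRNAs of chromosome X lay on both sides of equality. Those that averaged 10 RPM or more had log2 ratios of −0.72 to 1.45. All 185 entries ran from −4.77 to 4.95. A larger set tends to have a wider range, and both of those extremes were listed at 0 in 1 library, so the ranges cannot be compared. By name, 266 of the 281 ssc entries were matched to the RefSeq gene table, and 6 of the 7 members were placed on X (miR-500b-3p had no match). Of 13 other X entries that averaged 10 RPM or more, 3 (23.1%) passed the 2-fold limit in favour of PMM, near the 21.6% of all 185 entries, and 0 in favour of LDM, beside 6.49%. Their median log2 ratio was 0.18, against 0.35 over the 185. The highest was miR-374a-3p, with 6917 normalised reads in PMM and 2527 in LDM, a ratio of 2.74 (2.61 to 2.87). The lowest was miR-374b-5p, with 483 in PMM and 803 in LDM, a ratio of 0.601 (0.534 to 0.676).

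Entries of like level were found by the distance between log2 values in the 2 libraries, which is a description over 2 points. Nearest to miR-532-5p were PN-75-5p (2916 normalised reads in PMM and 756 in LDM, distance 0.14), miR-28-3p (2836 in PMM and 849 in LDM, 0.19) and miR-320-3p (2603 in PMM and 925 in LDM, 0.28). miR-17-5p and miR-28-5p followed at 0.74 and 0.81. Nearest to miR-532-3p were miR-361-3p (0.13), miR-504-5p (0.24), miR-345-3p (0.29), miR-4334-3p (0.34) and miR-491-3p (0.35). The strands nearest to miR-532-5p had ratios of 1.57 to 3.86, and those nearest to miR-532-3p had ratios of 0.554 to 1.05. That these ratios lie near that of the strand follows from the choice, since distance and ratio use the same values. The joined miR-500 5p entry lay nearest to miR-505-3p (0.11), miR-29c-5p (0.17), miR-339-5p (0.19), miR-574-3p (0.36) and miR-15b-5p (0.38), and miR-500b-3p to PN-16-3p (0.12), miR-145-3p (0.18), miR-1277-3p (0.21), miR-155-5p (0.23) and miR-221-5p (0.30). Of the lower members, miR-362-5p lay nearest to PN-13-3p (0.70) and miR-296-3p (0.71). The nearest entry lay at 2.72 for miR-362-3p and at 3.02 for miR-500a-3p. Entries under the level limit were not searched, so near ones could not be found for these 2 strands.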

How the data were processed

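Small RNA of 10 to 40 nt was isolated from pooled RNA of each muscle and read single-end in 36 bp. The deposited table held 1 value per entry and library, headed as normalised by the authors, and these are treated as a signal. The submitters' processing notes name the build Sscrofa 10.2. Neither the mapper and miRNA release nor the method of normalisation is given in the sources used here. Gene order was taken from a RefSeq table of Sscrofa 11.1, so no coordinates are given. Of values above 0, 592 of 593 were whole numbers in PMM, and 423 of 424 in LDM were whole multiples of 1.15 units (tolerance 0.001). LDM values were therefore divided by that step to give reads. Per the file headers, a p-value column holds the authors' own comparison, and it was not used, nor was the sum column.

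Ratios carry an exact conditional binomial interval, ratios of ratios an exact conditional odds ratio interval, and shares a Clopper-Pearson interval, all at 95%. Reads carried no molecular identifiers, so these cover counting error only. Log2 ratios carry a pseudocount of 1 RPM (8.65 units), which understates changes of low entries. The scripts, in Python 3.11.15 with scipy 1.17.1, pandas 2.3.3, numpy 2.4.6 and matplotlib 3.10.9, were tested on simulated data.

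Named miRNAs were the members, entries with their seed, the 5 nearest in level, the 5 largest arm differences, the extremes of chromosome X and tissue markers. A search against hairpin sequences was not run. Members and lists were chosen with earlier results of these data known. Scaling, pseudocount, level and fold limits were varied.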

Additional observations from a re-analysis of the deposited data

How the results depend on the processing

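Scaling cancels in the difference between the arms of miR-532 but for the pseudocount, so only the pseudocounts bear on it: it was 1.91 with 10 RPM and 2.13 with 0.1 RPM on the log2 scale. A single factor between the libraries moves all ratios together. Equal totals raised the median ratio by 0.032, whereas it was lowered by 0.27 with a trimmed mean of log ratios, 0.37 with library totals that leave out the 10 highest entries and 0.35 after centring. With these, in that order, the log2 ratio of miR-532-5p was 1.52, 1.41 and 1.43. That of the joined miR-500a-5p and miR-500b-5p entry was 0.10, −0.00021 and 0.021, so that the second of them turned its sign. Within counting error, miR-362-5p turned negative under the same alternatives (−0.18, −0.27 and −0.29) and miR-362-3p after centring (−0.11). That of miR-532-3p was −0.68 with library totals that leave out the 10 highest entries and −0.67 after centring. miR-500b-3p stayed higher in PMM under each. The counts of entries at least 2-fold higher and lower in PMM were 40 and 12 as deposited, 24 and 24 with the totals without the 10 highest, 24 and 21 after centring, 84 and 35 with no level limit, 19 and 4 at 100 RPM, 74 and 25 at a limit of 1.5-fold, and 19 and 7 at 3-fold. miR-532 ranked 7 among arm pairs with no level limit. At 100 RPM it was not among the 12 pairs, as its 3p arm is lower. The place of MIR532 with MIR500 among neighbouring genes was 4 without miR-23a-3p or with its values exchanged, alternatives chosen after seeing the data. Depth limits miR-500a-3p and miR-362-3p, which had 12 to 18 reads. Adding further entries of the miR-532 hairpin was not run, since no hairpin sequence was used here. No paired analysis was possible because each muscle had 1 library.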
